A study of Homo sapiens with 20 samples.

Results

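The comparison was made between HCT116 cells treated with tunicamycin for 4 h and HCT116 cells treated with it for 1 h, as seen by PAR-CLIP of the RNA-binding protein IGF2BP3. It uses 6 of the 20 libraries of the series, chosen by their library names: 3 anti-IGF2BP3 libraries at 4 h and 3 at 1 h. HCT116 is a human colorectal carcinoma line, and the derivative used here carries Tet-OsTIR1-PURO, a transgene for conditional expression of OsTIR1, in both groups. Both groups had 4-thiouridine at 100 µM for 15 h, tunicamycin at 5 µg/mL, and ultraviolet light at 365 nm with 0.15 J/cm2. They differ by label only in the time of tunicamycin. The labels do not say that replicates came from separate cultures, so the p-values below measure the spread between these libraries, which may be technical. DMSO libraries (4 h of vehicle, 3 libraries) are quoted as levels, and enter only 1 alternative fit, which shares the spread over 9 libraries.

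Tunicamycin blocks N-linked glycosylation, so glycoproteins misfold in the endoplasmic reticulum (ER). The unfolded protein response then runs through the sensors IRE1, which splices the XBP1 mRNA, PERK, which slows translation and lets ATF4 be made, and ATF6, which induces ER chaperones. IGF2BP3 binds mRNAs through RRM and KH domains and is known for protecting target transcripts such as HMGA2 and MYC in tumour cells. In PAR-CLIP, 4-thiouridine crosslinks to the bound protein, and reverse transcription leaves a T-to-C conversion at the crosslink. A cluster is a stretch of overlapping reads with such conversions, called separately in each library. The counts hold both the amount of an RNA and the share of it that was bound, and these cannot be told apart here, nor can the number of cells and the RNA per cell.

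The gene counts per library ranged from 227961 to 1069328 at 1 h and from 457179 to 1568406 at 4 h, and the clusters from 7913 to 43662 and from 18412 to 63287. TM 1 h replicate 1 was the shallowest library and TM 4 h replicate 3 the deepest. The library names put replicates 1 and 2 of both times in one set and replicate 3 in another. The IgG library of 1 h listed 33 clusters and that of 4 h 91. Of the genes tested by name, 7 of 1765 had any read in the IgG list of 1 h and 21 in that of 4 h. All 6 pairs of replicates differed beyond counting noise (chi-square per gene from 1.28 to 1.69). None of the 11 markers of cell types absent from the line had a cluster, and 5 of the 10 colon epithelial markers did, with EPCAM the only marker tested (log2 difference -0.06).

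Clusters of the 6 libraries were merged into regions, and 3964 regions held a cluster in every library. Their reads were summed per gene, where a region lay in the span of a single protein-coding RefSeq gene, and given as RPM, the reads per 1000000 such reads. A total of 1765 genes could be compared in this way. Between 1 h and 4 h, the quasi-likelihood test of edgeR, adjusted by Benjamini-Hochberg, called 115 genes (6.52% of those tested, threshold 0.05). Of these 81 rose (4.59%) and 34 fell (1.93%). A rise of at least 2-fold was called for 24 genes (1.36%) and a fall of at least 2-fold for 5 (0.283%). The libraries of the groups did not overlap for 25.6% of all genes tested. The 115 genes called kept their direction under every alternative that tested them, though all of these draw on the same 6 libraries. The count depended on the libraries: it was 56 without TM 1 h replicate 2, 63 without TM 4 h replicate 1, 67 without TM 4 h replicate 2, and 70 with replicates 1 and 2 only.

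**Figure D1:**
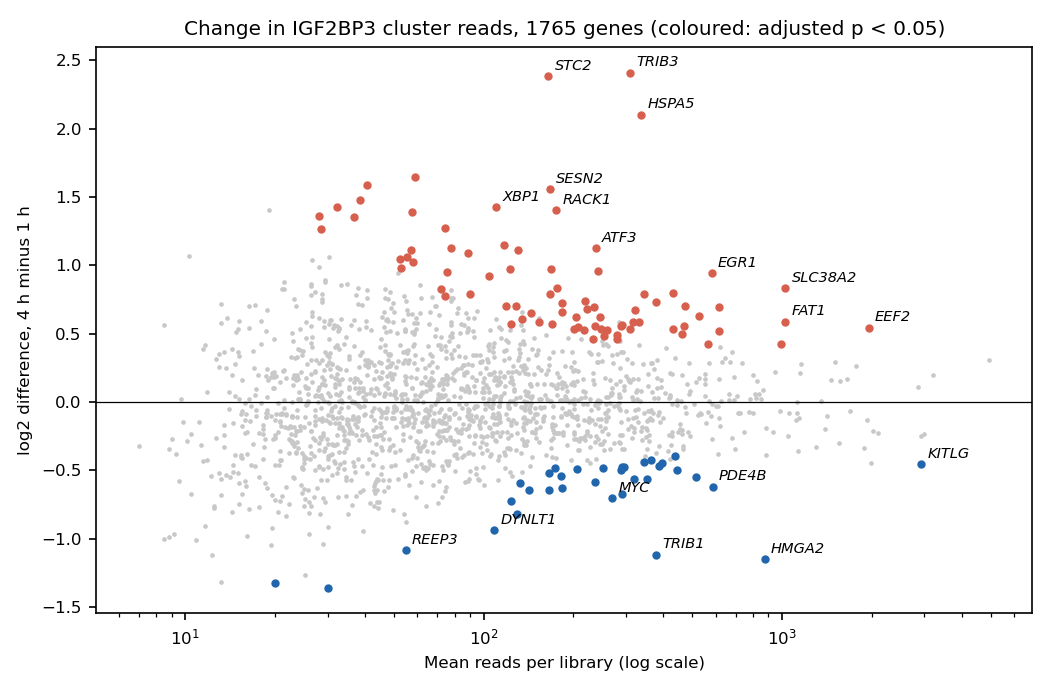
Each point is 1 of 1765 genes, with mean reads per library on the x axis (log scale) and the log2 difference of 4 h minus 1 h on the y axis. Red points are the 81 genes that rose and blue points the 34 that fell at an adjusted p under 0.05. TRIB3, STC2 and HSPA5 stand above 2 on the log2 scale and HMGA2 and TRIB1 lie below -1.

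The sequences bound in the genes with the largest changes are shown first. For each of the 6 genes that rose most and the 6 that fell most, among called genes with a mean of at least 50 reads, the region with most reads was taken. The window is up to 30 bases around the mode position of its deepest cluster. It is printed 5′ to 3′ in the sense of the RNA, with CAT in capitals, since CAT is a short motif recovered by PAR-CLIP of this protein family. Coordinates are on GRCh38. TRIB1 and YTHDF3 have no window here.
TRIB3, chr20:396788-396817, plus strand: cttccagaagggagaaaggcagaagcctgt
STC2, chr5:173315734-173315763, minus strand: tctgcCATgggaacgagtgtaaaccgtggc
HSPA5, chr9:125236544-125236573, minus strand: tgtaatattgtaaatactggactcaggaac
ARID2, chr12:45850452-45850481, plus strand: acagtggtaccaggacagatcccttcaggc
SESN2, chr1:28281346-28281375, plus strand: gaggctgttgcccgaatcctagttcagttt
XBP1, chr22:28795416-28795445, minus strand: cagcccctcagagaatgatcaccctgaatt
HMGA2, chr12:65964506-65964535, plus strand: gcacttttagccagagatgcaatatatccc
REEP3, chr10:63623167-63623196, plus strand: tgcactttttcaCATtcacagtgcttcctc
DYNLT1, chr6:158636681-158636710, minus strand: tagaggaaaaaaccaaatgaccgcactgtg
TRIM14, chr9:98086901-98086930, minus strand: cctctcccagtcctCATcttccaccctaaa
CAT stood in 3 of these 10 windows. Over all 3964 regions, 43.9% of the windows taken in the same way held it. Among the 96 regions that were higher at 4 h the share was 37.5%, and among the 27 that were lower it was 33.3%. These shares are a description of windows of 1 set of libraries.

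ER chaperones and the XBP1 branch were recovered more at 4 h for 3 members. HSPA5 encodes BiP, the main Hsp70 chaperone of the ER. HSPA5 had 441, 374 and 443 RPM at 1 h and 1689, 2440 and 1326 RPM at 4 h. All 4 h libraries lay above all 1 h libraries, and the DMSO libraries, at 400, 325 and 396 RPM, lay near those of 1 h. HSPA5 rose 4.29-fold (log2 difference 2.10, SE 0.18, adjusted p = 8.54e-09), and its call held under all 17 alternatives. HSPA5 has a pseudogene copy, so its reads are uncertain where they match both. XBP1 encodes the transcription factor whose mRNA IRE1 splices. It had 182, 88.9 and 267 RPM at 1 h and 567, 619 and 428 RPM at 4 h, a rise of 2.68-fold (log2 difference 1.42, SE 0.25, adjusted p = 0.00049) with no overlap. Without TM 1 h replicate 3, the highest of its group, the log2 difference was 2.13, and with replicates 1 and 2 only 2.28. It was 1.12 without TM 1 h replicate 2, the lowest of its group. CALR, the lectin chaperone calreticulin, moved from 869, 723 and 708 RPM to 998, 1381 and 868 RPM. Its groups overlapped, and its call (log2 difference 0.52, SE 0.16, adjusted p = 0.0463) was lost under 10 of 17 alternatives. Without TM 4 h replicate 2 its adjusted p was 0.424, without TM 1 h replicate 3 0.187, without TM 1 h replicate 2 0.178 and without TM 4 h replicate 1 0.0889.

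Of the list of 28 ER chaperones and folding enzymes, 8 could be tested, 2 rose, none fell and the median log2 difference was 0.30. The median over all genes tested was -0.02, and 4.59% of all genes tested rose. The members that did not pass ranged from -0.32 for ERO1A, the oxidase that recharges protein disulphide isomerase, to 0.62 for HSPA13 (adjusted p = 0.0639). Of 24 genes of ER-associated degradation and the XBP1 branch, 8 were tested and XBP1 was the only one called. SELENOS, a membrane protein of the degradation complex, had a log2 difference of 0.85 (adjusted p = 0.0657). None of 14 tested genes of the translocon and secretory pathway passed (median -0.01). On the list of sensors and eIF2 kinases only 3 members were tested, MBTPS2, EIF2AK1 and EIF2AK2. None of these passed, with log2 differences from -0.21 to -0.04. The genes of the sensors IRE1 (ERN1), PERK (EIF2AK3) and ATF6 could not be tested.

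The ER stress response element, a promoter motif bound by NF-Y with ATF6 or XBP1, was searched as CCAAT and CCACG with any 9 bases between them, on both strands of the RefSeq promoter windows (GRCh38.p14). A window runs from 250 bases before to 50 bases after a start. It was found in 21 of 15843 protein-coding genes with a window (0.133%) in 6 of the 1452 genes tested by name with a window (0.413%), and in 3 of the 64 genes that rose and had a window (4.69%). Since the ER stress genes were known to rise when the motif was chosen, this count is a description. These 3 were HSPA5, XBP1 and CALR, and none of the 23 genes that fell and had a window held it. The matches are printed 5′ to 3′ on the strand of the match with the fixed letters in capitals.
HSPA5, chr9:125241391-125241409, minus strand: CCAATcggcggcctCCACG
XBP1, chr22:28800603-28800621, minus strand: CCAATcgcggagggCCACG
CALR, chr19:12938384-12938402, minus strand: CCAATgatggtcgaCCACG
The matches began 66 bases before the start in HSPA5 and 52 in XBP1, on the strand of the gene, while that of CALR was on the other strand. TTGCATCA, the core of an element bound by ATF4 with C/EBP proteins, stood in 0.903% of genes with a window. Among genes that rose it was in RPS23 only, and among genes listed at 4 h only (below) in HERPUD1 and CHAC1. A match is a string of letters and not a shown binding site.

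**Figure D2:**
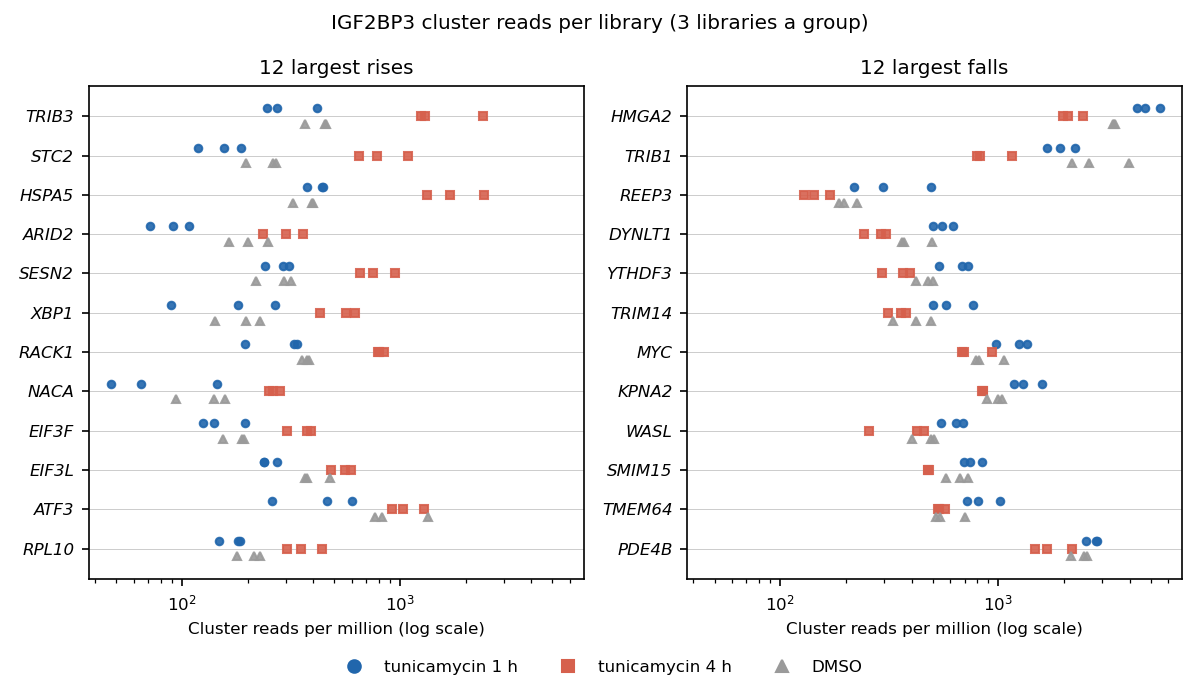
RPM of each library (x axis, log scale) for the 12 genes that rose most and the 12 that fell most among called genes with a mean of at least 50 reads, with circles for tunicamycin 1 h, squares for 4 h and triangles for DMSO (3 libraries each). The 4 h libraries of TRIB3, STC2 and HSPA5 lie apart from both other groups, while for ATF3 the DMSO libraries reach 1340 RPM.

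Many stress genes had too few clusters at 1 h to be tested, and they are given as listed reads. A list holds only clusters above a calling minimum, so a 0 means no listed cluster and no fold is given. HERPUD1, an ER membrane protein that organises degradation, had no cluster in any 1 h library and 110, 401 and 497 cluster reads at 4 h. The DMSO libraries listed 0, 12 and 7 reads for it. DDIT4 (REDD1), an inhibitor of mTORC1, had 0 at 1 h, 83, 201 and 434 reads at 4 h, and 0, 29 and 13 in DMSO. DDIT3, which encodes CHOP, the transcription factor of the late PERK response, had 37, 112 and 177 reads at 4 h and none at 1 h or in DMSO. CHAC1, a glutathione-degrading enzyme, had 10, 93 and 164, and PDIA3, a disulphide isomerase of glycoproteins, had 10, 46 and 89. In DMSO CHAC1 had 0, 8 and 0 reads and PDIA3 0, 14 and 16. The window of the deepest cluster, with CAT in capitals, is shown for 4 of these genes, none of which had a cluster at 1 h.
HERPUD1, chr16:56940123-56940152, plus strand: tcgagattggttggattggacctattcagc
DDIT4, chr10:72275402-72275431, plus strand: tagCATgaaacaaaggcttaggggccaaca
DDIT3, chr12:57516674-57516703, minus strand: aCATacgcagggggaaggcttggagtagac
CHAC1, chr15:40956477-40956506, plus strand: ctgtccCATactgttaccCATaaaactatc
In total 37 of 7520 genes with any cluster (0.492%) had clusters in every 4 h library and in no 1 h library. No gene had the reverse. Only 4 of the 37 had at least 20 reads in TM 4 h replicate 1. The 1 h libraries held 102287, 281676 and 858769 cluster reads and the 4 h libraries 268588, 550484 and 1384774, and the part of depth in this count was not tested.

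HSP90B1 (GRP94), the ER Hsp90, had 6, 12 and 57 cluster reads at 1 h and 122, 318 and 577 at 4 h. Per 100000 cluster reads this is a mean of 5.59 at 1 h and 48.3 at 4 h, without overlap. TM 1 h replicate 3 was deeper than TM 4 h replicates 1 and 2 and listed fewer HSP90B1 reads than either. DNAJB9, an ER cochaperone, had 0, 0 and 7 reads at 1 h and 52, 157 and 254 at 4 h. PSAT1, an enzyme of serine synthesis, had 0, 40 and 174 at 1 h and 115, 318 and 550 at 4 h. GDF15, a secreted stress cytokine, had 0, 11 and 73 at 1 h and 37, 185 and 303 at 4 h. Per 100000 cluster reads GDF15 had 0, 3.91 and 8.50 at 1 h and 13.8, 33.6 and 21.9 at 4 h. In DMSO GDF15 had 16.1, 11.96 and 12.3 per 100000, above all 1 h libraries. DMSO replicate 1 also lay above TM 4 h replicate 1. On this scale the DMSO libraries of HSP90B1, DNAJB9 and PSAT1 lay below all 4 h libraries. For PSAT1, DMSO replicates 2 and 3 lay above all 1 h libraries. EIF4EBP2, a repressor of cap-dependent translation in the same lists, had means of 15.4 and 20.3 per 100000 with overlapping libraries. The libraries of DNAJC3 (means of 12.5 and 24.8) and SEL1L (4.30 and 13.9) overlapped as well.

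**Figure D3:**
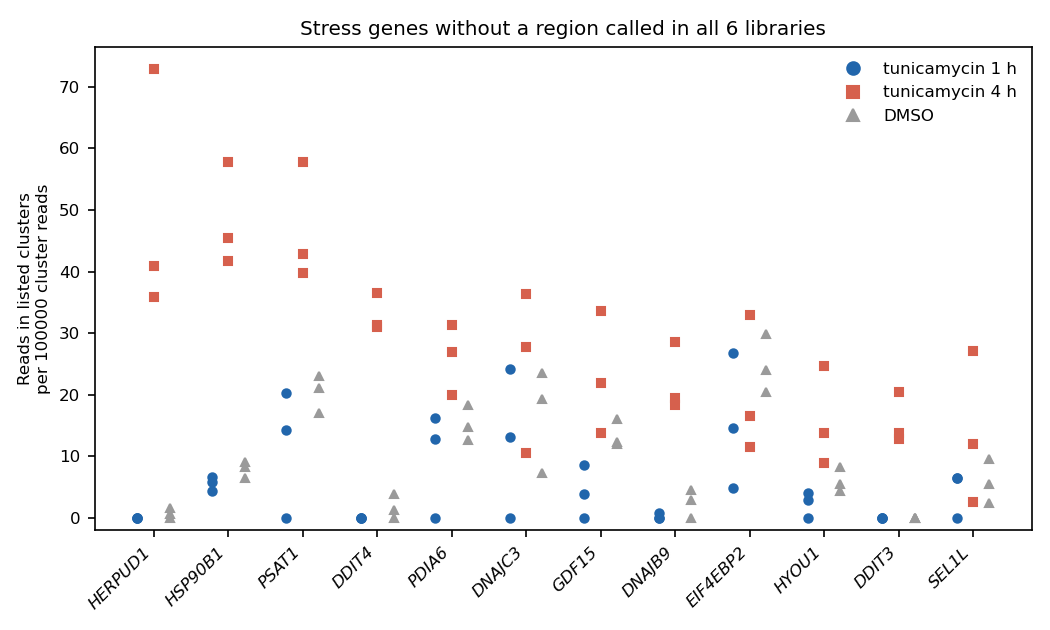
Reads in listed clusters per 100000 cluster reads of the library (y axis), for the 12 stress genes with the highest 4 h mean among those without a region called in all 6 libraries (x axis). The 4 h squares of HERPUD1, HSP90B1, PSAT1 and DDIT4 lie above all 1 h circles. For EIF4EBP2, DNAJC3 and SEL1L squares and circles overlap.

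The list of regulators around ATF4 and CHOP held changes in both directions. Of 6 tested regulators on that list, 4 rose (TRIB3, ATF3, ATF4 and TNFRSF10B) and TRIB1 fell, beside 4.59% and 1.93% of all genes tested. The list median was 0.64. TRIB3, a pseudokinase that binds AKT and ATF4, had 246, 415 and 272 RPM at 1 h and 1252, 2397 and 1308 RPM at 4 h. It had the largest rise of all genes tested by name, 5.31-fold (log2 difference 2.41, SE 0.22, adjusted p = 1.08e-08), and DMSO was at 455, 457 and 367 RPM. ATF4 itself, the transcription factor made when eIF2 is phosphorylated, moved from 713, 676 and 527 RPM to 1089, 955 and 964 RPM. Its libraries did not overlap (log2 difference 0.70, SE 0.15, adjusted p = 0.00305), but without TM 1 h replicate 3 its adjusted p was 0.0654, and with replicates 1 and 2 only it was 0.114. ATF3, a repressor induced by ATF4, had 259, 463 and 605 RPM at 1 h and 1037, 1285 and 916 RPM at 4 h (log2 difference 1.13, SE 0.18, adjusted p = 0.000214). The DMSO libraries held 831, 772 and 1340 RPM of ATF3, so they overlapped the 4 h libraries. TNFRSF10B, the death receptor DR5, had a log2 difference of 0.58 (SE 0.13, adjusted p = 0.00611).

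TRIB1, another tribbles pseudokinase, ran opposite to TRIB3. It had 1919, 1666 and 2236 RPM at 1 h and 1154, 823 and 799 RPM at 4 h, a fall of 2.17-fold (log2 difference -1.12, SE 0.15, adjusted p = 7.77e-06). The 1 h and 4 h libraries did not overlap. The DMSO libraries held 2610.5, 2185 and 3973 RPM. DMSO replicates 1 and 3 lay above all 1 h libraries, and replicate 2 inside the 1 h range. Both of its regions called in all libraries fell.

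SESN2 (sestrin 2), a leucine sensor that restrains mTORC1, was the only member of the list of 11 mTORC1 brakes that could be tested. It had 311, 291 and 241 RPM at 1 h and 652, 952 and 754 RPM at 4 h. The rise was 2.95-fold (log2 difference 1.56, SE 0.18, adjusted p = 8.76e-07). Of 4 tested secreted stress factors, 3 rose, beside 4.59% of all genes tested. STC2 (stanniocalcin 2), a secreted glycoprotein, had 156, 119 and 187 RPM at 1 h and 646, 1088 and 784 RPM at 4 h, a rise of 5.22-fold (log2 difference 2.38, SE 0.21, adjusted p = 8.54e-09). VEGFA, the angiogenic factor, rose from 77.8, 35.6 and 75.0 RPM to 157, 225 and 187 RPM (log2 difference 1.59, SE 0.35, adjusted p = 0.00459). Few reads stood behind its values in TM 1 h replicates 1 and 2. AREG, an EGF receptor ligand, was called at a log2 difference of 0.62 (adjusted p = 0.0107). Its call was lost without TM 1 h replicate 2 (adjusted p = 0.0733), TM 1 h replicate 3 (0.0513), TM 4 h replicate 1 (0.0502) or TM 4 h replicate 2 (0.122). EREG, a related ligand, had a log2 difference of -0.33 (adjusted p = 0.146).

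Amino acid supply genes rose in part. Of 5 tested transporters, SLC38A2, SLC7A1 and SLC7A5 rose and none fell, beside 4.59% and 1.93% of all genes tested. SLC38A2 (SNAT2), a neutral amino acid carrier known to be induced by ATF4, had 2425, 2526 and 2561 RPM at 1 h and 4265, 5332 and 3814 RPM at 4 h (log2 difference 0.83, SE 0.13, adjusted p = 0.000214). SLC7A1, the cationic amino acid transporter, rose by a log2 difference of 0.79 (SE 0.14, adjusted p = 0.000593). SLC7A5 (LAT1) had 0.42 (SE 0.12, adjusted p = 0.037), a call that was lost without TM 1 h replicate 2 (adjusted p = 0.1), TM 1 h replicate 3 (0.129), TM 4 h replicate 1 (0.104) or TM 4 h replicate 2 (0.118). SLC3A2, its heavy chain, had a log2 difference of 0.83 with an adjusted p of 0.129. MTHFD2, a mitochondrial enzyme of folate metabolism, rose from 1141, 1577 and 1411 RPM to 2289, 2165 and 2054 RPM (log2 difference 0.63, SE 0.13, adjusted p = 0.00244). None of 4 tested cytosolic aminoacyl-tRNA synthetases passed, with log2 differences from -0.06 to 0.51.

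Ribosomal protein mRNAs changed in 1 direction where they were called. Of 49 proteins of the large subunit, 17 were tested, 9 rose and none fell, with a median log2 difference of 0.73. Of 32 proteins of the small subunit, 8 were tested, 3 rose (RPS4X, RPS23 and RPS13) and none fell, with a median of 0.77. These shares stand beside 4.59% of all genes tested that rose and the median of -0.02. RPL28 had 389, 409 and 363 RPM at 1 h and 874, 726 and 693 RPM at 4 h, without overlap (log2 difference 0.97, SE 0.16, adjusted p = 0.000214). In DMSO RPL28 had 698, 511 and 447 RPM, between the groups for 2 libraries and inside the 4 h range for 1. The large subunit genes other than RPL10 were named after their values were seen. RPL14 had the highest log2 difference of the large subunit, 1.48 (SE 0.34, adjusted p = 0.00635). RPL10 was called at 1.13 (adjusted p = 0.00346), but at an adjusted p of 0.0506 without TM 1 h replicate 3 and 0.0559 without TM 4 h replicate 2. RPS4X, at 1.09, had an adjusted p of 0.0533 without TM 1 h replicate 3. RPS13 was called at an adjusted p of 0.0497 and lost its call under 15 of 17 alternatives, among them each library left out except TM 1 h replicate 1. RPL23A and RPS27L, at -0.09 and -0.01, were the members with a log2 difference under 0. Ribosomal protein genes have many near-identical pseudogenes, and reads that match several copies make these values uncertain.

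Next among the largest rises of called genes with a mean of at least 50 reads came RACK1, NACA, EIF3F and EIF3L. RACK1, a scaffold protein on the small ribosomal subunit, had 195, 338 and 328 RPM at 1 h and 802, 848 and 791 RPM at 4 h (log2 difference 1.40, SE 0.17, adjusted p = 1.47e-06). DMSO lay at 376, 355 and 382 RPM, just above 1 h. EIF3L and EIF3F, subunits of the initiation factor eIF3, rose by log2 differences of 1.15 (SE 0.18, adjusted p = 0.000214) and 1.27 (SE 0.25, adjusted p = 0.00171). NACA, a chaperone subunit at the ribosome exit, had 1.39 (SE 0.32, adjusted p = 0.00635), and 1.10 with an adjusted p of 0.0594 without TM 1 h replicate 2. It had 2.29 without TM 1 h replicate 3 and 2.33 with replicates 1 and 2 only. Its 1 h libraries held only 5, 8 and 62 NACA reads. The elongation factors EEF1A1 (log2 difference 1.11, adjusted p = 0.000304) and EEF2 (0.54, adjusted p = 0.0261) are outside the lists and were chosen after their values were seen. ARID2, a subunit of a SWI/SNF chromatin remodeller, was the 1 gene of the 6 largest such rises outside the lists. It had 90.8, 71.2 and 108 RPM at 1 h and 300, 358 and 237 RPM at 4 h (log2 difference 1.65, SE 0.29, adjusted p = 0.000593). Its 1 h values rested on 7, 12 and 46 reads. In DMSO ARID2 had 165, 248 and 201 RPM, above all 1 h libraries, and DMSO replicate 2 lay inside the 4 h range.

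**Figure D4:**
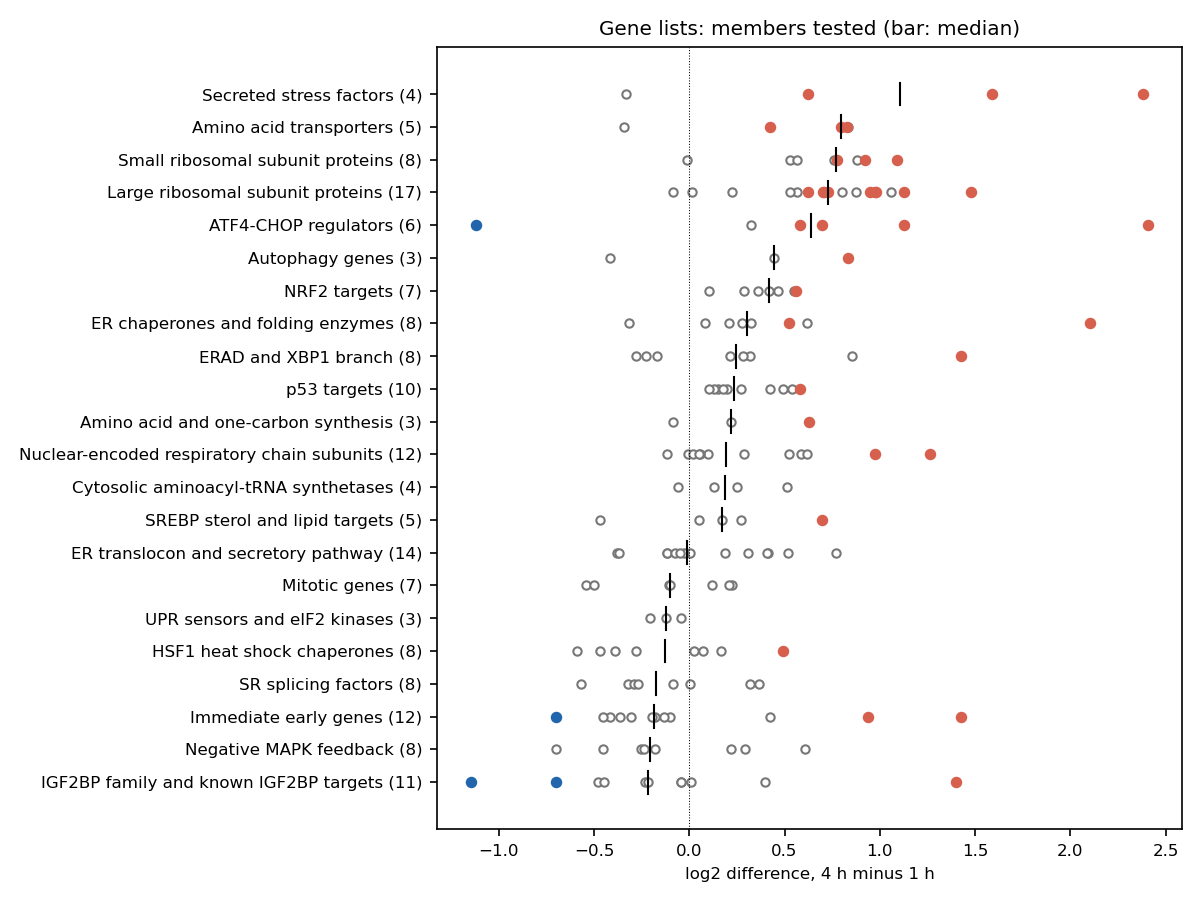
Log2 difference of 4 h minus 1 h (x axis) for the tested members of each gene list with at least 3 tested members (y axis, number tested in parentheses). Filled points passed at an adjusted p under 0.05, red for higher and blue for lower, and the bar is the median. The medians of the ribosomal lists lie at 0.73 and 0.77. That of the list of sensors and eIF2 kinases, where IRE1, PERK and ATF6 were not tested, lies at -0.12.

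HMGA2 had the largest fall among called genes with a mean of at least 50 reads. HMGA2 is a chromatin protein of embryonic and tumour cells whose long 3′ end is a known target of IGF2BP proteins and of the let-7 miRNAs. It had 5485, 4685 and 4309 RPM at 1 h and 2439, 1990 and 2089 RPM at 4 h. The groups did not overlap, and the DMSO libraries lay between them at 3434, 3345 and 3409 RPM. HMGA2 fell 2.22-fold (log2 difference -1.15, SE 0.13, adjusted p = 8.76e-07), and the call held under all 17 alternatives. All 5 of its regions fell, by log2 differences from -1.01 in region 3 to -1.71 in region 6 (SE 0.29, adjusted p = 0.00122), the region nearest to the end of the gene. The call of region 4 was lost without TM 4 h replicate 2 (adjusted p = 0.1). None of the 5 passed the test against the rest of the gene, with usage differences from -0.40 to 0.09 on the log2 scale and an adjusted p of 0.998 for each.

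The mature let-7a is printed with its seed (bases 2 to 8) in capitals, from RefSeq. Its seed match, CTACCTC, was searched on the sense strand of the regions after HMGA2 had been seen, and the HMGA2 stretches that hold it are shown with the match in capitals.
hsa-let-7a-5p: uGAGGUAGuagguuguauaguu
HMGA2 region 3, chr12:65964537-65964565, plus strand: actactcaataCTACCTCtgaatgttaca
HMGA2 region 4, chr12:65964949-65964977, plus strand: cttgcaaagacCTACCTCcagacttcaaa
HMGA2 region 5, chr12:65965802-65965830, plus strand: aaaacacactaCTACCTCttaagtcccag
The seed match stood in 3 of the 5 HMGA2 regions and in 96 of all 3964 regions (2.42%). It was in 5 of the 27 regions that fell (18.5%), or 2 of 22 without HMGA2, these 2 being in KPNA2 and PDE4B. It was in 3 of the 96 regions that rose (3.12%). Over all regions with the match the median log2 difference was 0.05. Regions that fell were longer, with a median of 492 bases against 228 over all regions.

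The list of the IGF2BP family and known targets had 11 tested members, of which HMGA2 and MYC fell and RACK1 rose, beside 1.93% and 4.59% of all genes tested. The list median was -0.22 and that of all genes -0.02. MYC, a proto-oncogene and immediate early gene, had 973, 1245 and 1354 RPM at 1 h and 933, 683 and 695 RPM at 4 h (log2 difference -0.70, SE 0.15, adjusted p = 0.003). Without TM 1 h replicate 3 its adjusted p was 0.0513, and with replicates 1 and 2 only 0.173. In DMSO MYC had 792, 815 and 1061 RPM, which overlapped both groups. CCND1 and HMGA1 had log2 differences of -0.45 and -0.23 and CD44 of 0.40, and none of these passed. ACTB, whose mRNA zipcode is the classic site of the family, stood at 0.01. IGF2BP3 itself was not tested: its clusters held a mean of 9.50 per 100000 cluster reads at 1 h and 7.37 at 4 h, with overlapping libraries and no cluster listed in TM 1 h replicate 1. IGF2BP2 had means of 5.09 and 4.61. IGF2BP1 had no cluster listed.

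The other falls of the genes named by rule were smaller than those of HMGA2 and TRIB1. DYNLT1, a dynein light chain, went from 622, 551 and 499 RPM to 241, 304 and 291 RPM (log2 difference -0.94, SE 0.18, adjusted p = 0.00137). YTHDF3, a reader of N6-methyladenosine, had -0.82 (SE 0.17, adjusted p = 0.00311) and SMIM15 -0.64 (adjusted p = 0.00612). REEP3, an ER-shaping membrane protein, had -1.09 (adjusted p = 0.0219), a call that was lost with any 1 library left out except TM 1 h replicate 3, at adjusted p from 0.0606 to 0.0891. KPNA2 (importin alpha) had -0.67 and PDE4B, a cAMP phosphodiesterase, had -0.62. Without TM 1 h replicate 2 their adjusted p-values were 0.0557 and 0.0553. TRIM14 (-0.73), WASL (-0.65) and TMEM64 (-0.63) were also called, and without TM 1 h replicate 2 had adjusted p-values of 0.0557, 0.0557 and 0.141. TRIM14 also lost its call without TM 4 h replicate 1 (0.0506) or 2 (0.0542), WASL without TM 1 h replicate 3 (0.132) or TM 4 h replicate 1 (0.12), and TMEM64 without TM 4 h replicate 3 (0.0533). DMSO libraries of TRIM14 (329, 419 and 491 RPM), TMEM64 (541, 519 and 705 RPM) and WASL (400, 491 and 509 RPM) overlapped those of 4 h. Those of DYNLT1, YTHDF3 and KPNA2 lay between the groups. For SMIM15 and REEP3 they overlapped those of 1 h, and for PDE4B those of both groups.

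Of 12 immediate early genes tested, EGR1 and KLF10 rose, MYC fell and 9 were not called, with a median of -0.19. Of all genes tested, 4.59% rose and 1.93% fell. Each of the 3 calls was lost under at least 3 alternatives. EGR1 had 960, 1050 and 1762 RPM at 1 h and 2387, 3292 and 1976 RPM at 4 h (log2 difference 0.94, SE 0.18, adjusted p = 0.00154), while DMSO held 3206, 2407 and 4353 RPM. In DESeq2 its adjusted p was 0.0627 and with robust variance moderation 0.145. KLF10 had 1.43 (adjusted p = 0.016), and an adjusted p of 0.0587 without TM 1 h replicate 2, 0.132 without TM 1 h replicate 3 and 0.0573 without TM 4 h replicate 1. Of 8 heat shock chaperones tested, HSP90AB1 was called (0.49, adjusted p = 0.0371) and lost the call with any 1 library left out except TM 1 h replicate 1. Of 7 NRF2 targets, SRXN1, sulfiredoxin, was called (0.56, adjusted p = 0.0214), with an adjusted p of 0.109, 0.0868 and 0.08 without TM 1 h replicate 2, TM 4 h replicate 1 and TM 4 h replicate 3. SQSTM1 (p62), an autophagy receptor, rose by 0.83 (SE 0.16, adjusted p = 0.00186), and SCD, a fatty acid desaturase of the SREBP list, rose by 0.70 (SE 0.14, adjusted p = 0.00171). In the respiratory chain list, whose members were named after their values were seen, COX6A1 (0.98) and COX7C (1.26) were called of 12 tested. All 10 tested p53 targets had a log2 difference above 0 (median 0.23), and so did all 7 tested NRF2 targets (median 0.42). TNFRSF10B, also on the list around ATF4 and CHOP, was the only p53 target called. Over all genes tested, 855 of 1765 were above 0 and 4.59% rose. No tested member passed among 7 mitotic genes, 8 SR splicing factors, 8 feedback genes of the MAPK pathway, 2 targets of BMP and TGF-beta and 2 factors of nonsense-mediated decay. Of the 2 Wnt targets tested, MYC was called.

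At the level of single regions, 96 of 3964 rose (2.42%) and 27 fell (0.681%) in edgeR's test, 3.1% in all. Changes of at least 2-fold were called for 61 regions upward (1.54%) and 9 downward (0.227%). With gene count totals as library sizes 49 rose and 29 fell, and when a cluster in 5 of 6 libraries sufficed 8 rose and 5 fell. Without TM 4 h replicate 2 the count was 46, without TM 1 h replicate 2 62, without TM 4 h replicate 3 64 and without TM 4 h replicate 1 69. Among called regions the largest rise was that of STC2 region 3 (chr5:173315150-173315774, minus strand), with a log2 difference of 2.74 (SE 0.28, adjusted p = 1.37e-06), and of 3.37 without TM 1 h replicate 3. TRIB3 region 1 followed at 2.41 and HSPA5 region 1 at 2.12. TMEM200A region 1 fell by 1.34 on the log2 scale (SE 0.31, adjusted p = 0.0164). Its adjusted p was 0.0601 without TM 1 h replicate 3, 0.124 without TM 4 h replicate 2 and 0.0783 without TM 4 h replicate 3.

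The position of regions along the gene differed between those that rose and the rest, as a description of the called regions. Over all 3176 regions in 1 protein-coding gene, 79.7% lay beyond 80% of the gene span, counted from its 5′ end. Of the 83 such regions that rose, 45.8% lay there, and of the 23 that fell, 87.0%. Of 644 regions before that point, 45 rose (6.99%, in 34 genes) and 3 fell. Of 2532 regions beyond it, 38 rose (1.5%, in 35 genes) and 20 fell. The median of mean reads per region was 46.9 before and 46.7 beyond it. The median log2 difference was 0.10 before that point and -0.03 beyond it. The gene span holds introns, and whether a region is exonic, intronic or in an untranslated region was not analysed here.

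Genes with several regions are described by region, and those named here were chosen after their values were seen. A region that passed and one that did not are not shown to differ. In ACTG1, cytoplasmic gamma-actin, region 2 (17.7% along the gene) and region 3 (49.3%) rose by 1.09 and 0.89, while region 6 (92.8%) fell by 0.53 on the log2 scale (adjusted p = 0.0435). In FAT1, a giant protocadherin, 5 of 13 regions rose, all between 75.8% and 88.7% of the gene, and region 24 at 99.8% had -0.39 and did not pass. In KITLG, the KIT ligand, regions 8 and 9 near the end fell by 0.62 and 0.73 on the log2 scale and regions 6 and 7 did not pass. In the test against the rest of the gene all 4 had an adjusted p of 0.998. In EEF2 regions 2 and 3, both in the 5′ part of the gene, rose by 1.49 and 1.26, and region 6 at 96.3% had 0.50 (adjusted p = 0.052). Against the rest of the gene the adjusted p of EEF2 regions ran from 0.485 to 0.998. ACTG1 shares near-identical coding sequence with other actins, so its reads are uncertain where they match several genes.

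**Figure D5:**
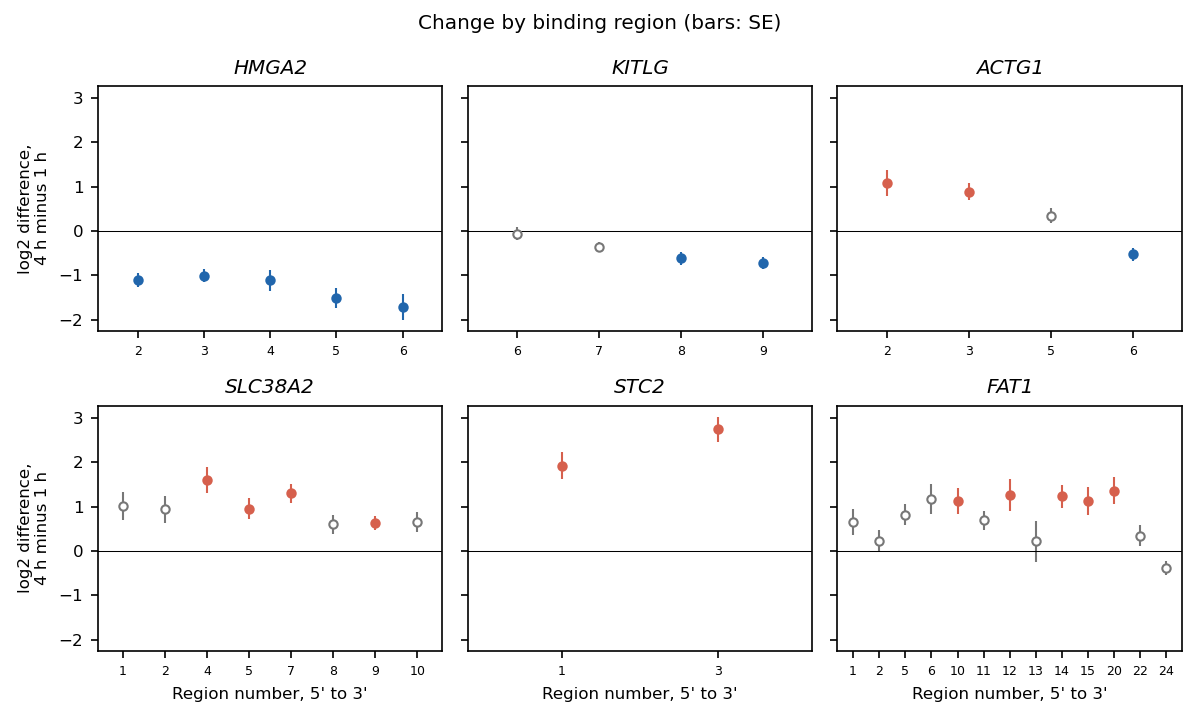
Log2 difference of 4 h minus 1 h (y axis, bars are the SE) for each region called in all 6 libraries in 6 genes, in order from 5′ to 3′ (x axis, region number). Filled points passed at an adjusted p under 0.05. All 5 regions of HMGA2 lie below 0, and in ACTG1 the points run from 1.09 in region 2 to -0.53 in region 6.

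Whether a region changed against the rest of its own gene was tested for 2149 regions of 738 genes, and 2 passed (0.0931%), 1 in each direction (0.0465% each). ACTG1 region 3 was used more at 4 h (log2 difference 0.74 against the gene, adjusted p = 0.000326). It had 198, 337 and 372 RPM over all regions at 1 h and 588, 550 and 643 RPM at 4 h. FAT1 region 24 was used less (-0.70, adjusted p = 0.000326), with 666, 748 and 674 RPM at 1 h and 556, 511 and 529 RPM at 4 h. Without TM 4 h replicate 3 ACTG1 region 3 had an adjusted p of 0.0564. The count was then 1. At an unadjusted p under 0.05 there were 73 regions. In simulated data this test recovered 9% of regions changed 2-fold, so most shifts of that size would be missed.

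Regions that rose and fell also differed in base composition, as a description of the called sets. The sequences of regions that rose held 27.1% T and 21.97% G, those that fell 33.8% T and 17.5% G, and all regions 31.9% T and 18.7% G. GGAC, a core in which N6-methyladenosine is often found, stood 0.392 times per 100 bases in regions that rose, 0.287 times in those that fell and 0.241 times in all. HMGA2 gave 5 of the 27 regions that fell, and the regions of 1 gene share their transcript.

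Over whole libraries, 7 measures of the clusters were compared by exact two-sided permutation tests, in which 3 against 3 libraries cannot give a p under 0.1. The uridine share of cluster sequences (T in the files) was 33.0%, 32.7% and 32.3% at 1 h and 31.7%, 31.1% and 31.4% at 4 h. All 4 h libraries lay below all 1 h libraries, with means of 32.7% ± 0.36 (SD, n = 3) and 31.4% ± 0.29 (SD, n = 3). The exact permutation p was 0.1, the smallest possible, and 0.467 adjusted over the 7 measures. The difference was -1.29 points with equal numbers of clusters per library. The DMSO libraries had 32.2%, 32.2% and 31.9%, between the groups.

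Conversion events made up 7.99%, 7.63% and 7.58% of all events at 1 h and 8.67%, 8.38% and 7.66% at 4 h, with overlapping libraries (exact permutation p = 0.2, adjusted 0.467). Clusters with GGAC were 11.6%, 11.97% and 13.8% at 1 h and 12.7%, 14.3% and 15.1% at 4 h (exact permutation p = 0.2, adjusted 0.467). Clusters with CAT (73.5% and 72.8% on average), clusters with ACACA (9.03% and 9.32%), the median cluster length (49.3 and 50.7 bases) and the clusters per 1000 gene counts (38.4 and 40.8) overlapped between the groups. Their exact permutation p-values were 0.6, 0.6, 0.6 and 0.3. The difference in clusters per 1000 gene counts was 2.41, and 0.57 without TM 1 h replicate 1. Per gene, limma on the log2 odds of conversion called 0 of 1765 genes, and 26 had an unadjusted p under 0.05. Leaving out TM 4 h replicate 3 gave 7 calls and leaving out TM 4 h replicate 2 gave 1. HSPA5, whose reads rose 4.29-fold, had 4.44%, 5.30% and 6.92% converted events at 1 h and 6.63%, 6.91% and 6.77% at 4 h. HMGA2 had 8.05%, 7.78% and 7.44% at 1 h and 8.63%, 8.68% and 7.78% at 4 h.

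The authors' count table, which holds all counted reads and not only those in clusters, gave more calls. Of 7450 genes tested with edgeR, 486 rose (6.52%) and 516 fell (6.93%), 13.4% in all. With library totals only as the scaling, 553 rose and 429 fell, and under a filter on the mean count (minimum 50) 447 rose and 396 fell. At least 2-fold changes were called for 91 upward (1.22%) and 24 downward (0.322%). Without TM 1 h replicate 3 the count was 486 in all, with replicates 1 and 2 only 348, and with DESeq2 393. Its genes are given by identifier only, since no table used here pairs them with names. ENSG00000128965_13 had 4.61, 4.48 and 2.90 CPM (counts per 1000000 counts) at 1 h and 76.5, 152 and 113 CPM at 4 h (log2 difference 4.99, SE 0.36). ENSG00000175197_12 had 4.61, 11.2 and 6.77 CPM at 1 h and 133, 175 and 127 CPM at 4 h (log2 difference 4.19, SE 0.28). ENSG00000002587_10 fell from 180, 163 and 179 CPM to 72.0, 71.3 and 55.6 CPM (log2 difference -1.46, SE 0.16). ENSG00000173334_4 fell from 991, 871 and 1140 CPM to 554, 416 and 404 CPM (log2 difference -1.19, SE 0.09). The first pair rested on 1 to 7 counts per library at 1 h.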

How the data were processed

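The 6 libraries were grouped by the treatment that the sample labels give. The treatment protocol names 4 h of tunicamycin only, and the labels' 1 h was followed. More than 1 RNase concentration is stated per the labels' protocols, without saying for which library. The submitters' processing notes list bcl2fastq 2.20.0.422, UMI-tools 1.1.1, Trimmomatic 0.30, Bowtie 0.12.7, featureCounts 2.0.1 and the build hg38 (GRCh38.p13). How reads with several matches were placed is not given in the sources used here. The authors deposited whole-number counts per gene in a table, and lists of clusters called per library, with read counts and conversion events, per the file headers. All sample columns were mapped, with 0 left over.

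Cluster sequences were checked against RefSeq promoter windows (437 of 437 identical). Clusters overlapping on a strand were merged into regions and placed in the RefSeq gene (GRCh38.p14) that held at least 50% of them, pseudogenes first. A strand was known for 15843 of 20050 protein-coding genes. Reads of regions with a cluster in all 6 libraries were summed per gene. This named result was chosen after the files had been seen, since the count table carries no names. Requiring a cluster in every library leaves out genes that were low at 1 h.

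Counts were tested with edgeR 4.0.16 (R 4.3.3; filterByExpr for the count table, TMM, quasi-likelihood F test, two-sided, diffSpliceDGE for region usage) and p-values were adjusted by Benjamini-Hochberg over all features (threshold 0.05). RPM and CPM use TMM-adjusted totals of the features tested, so gene and region RPM have different totals. The SE is that of the log2 difference. Conversion odds per gene, with 0.5 added to each event count, were tested with limma 3.58.1. Permutation tests used SciPy 1.17.1. Tested on simulated data, the named gene test recovered 88% of 2-fold changes, the region test 60.5% and the count table test 85.5%. With nothing changed each made 0 calls, and with 2-fold changes they made 5, 3 and 5 false calls in that order. All simulated features shared a common spread, with no difference between sets of libraries, so recovery here may be lower. For conversion, 67.5% of shares raised 1.5-fold were recovered, with 5 false calls. That simulation had no spread between libraries beyond the draw of events, so recovery here may be lower.

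Named genes are, per direction, the 12 called genes whose log2 difference was largest, given a mean of at least 50 reads and groups that did not overlap, then called members of the lists of up to 40 genes, and IGF2BP1, IGF2BP2, IGF2BP3, HSPA5, XBP1, ATF4 and DDIT3 in any case. The rule was written for the count table and applied to the named sums. Regions followed the same rule with a mean of at least 20 reads and 6 per direction. The members and lists were chosen with earlier results of these data known. RNA abundance and gene structure (exons, introns, untranslated regions) were not used here. Some items are not reported here.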

Additional observations from a re-analysis of the deposited data

How the results depend on the processing

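Over the gene counts, 1002 genes were called, 393 with DESeq2, 348 with replicates 1 and 2 only, and 486 to 860 with 1 library left out. By name 115 genes were called, and 71 with DMSO in the fit, 70 with replicates 1 and 2 only, 75 with gene count totals as library sizes, 40 when a cluster in 5 of 6 libraries sufficed, and 56 to 139 with 1 library left out. All 115 kept their direction under the alternatives that tested them, which draw on the same 6 libraries. Of regions 123 were called, 13 when 5 of 6 libraries sufficed, 78 with gene count totals, and 46 to 140 with 1 library left out. Region usage gave 2 calls, 1 when 5 of 6 libraries sufficed, and 1 to 3 with 1 library left out. Conversion share per gene gave 0 to 7 calls with 1 library left out. The cause of these shifts was not tested. With equal numbers of clusters per library, taken from the top by reads, the difference in median cluster length was 24 bases, in clusters with ACACA 3.18 points and with GGAC 5.96 points, and in clusters with CAT 5.00 points in place of -0.69. Leaving out 1 library the CAT difference ran from -1.22 to 0.038 points. Of 923 values of single genes and regions under alternatives, 803 stayed past the threshold, 120 fell short of it and 0 reversed, 28 of the 120 with 5 of 6 libraries. Same-numbered libraries did not deviate together (correlations 0.03, -0.03 and -0.05 over 3622 genes). Counting noise enters each deviation, so these values cannot settle whether the numbers pair the libraries. A replicate block gave 900 genes in the table, 83 named genes, 2 region usage calls and 3 conversion calls. A gene tested by name needs a cluster in every library, also in the shallowest, TM 1 h replicate 1 with 227961 counts, so genes low there were not tested.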
